A study of Mus musculus with 18 samples.

Results

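Hipk1, Hipk2 and Hipk3 encode homeodomain-interacting protein kinases, and their exonic circular RNAs (ecircRNAs) and mRNAs were followed in NIH/3T3 cells, which are fibroblasts grown from mouse embryos. The circles were chosen as every circRNA whose start and end both lay inside the span of 1 of the 3 genes. This gave 9 of the 16171 circRNAs listed in the 12 circRNA-seq libraries, 3 from Hipk1, 4 from Hipk2 and 2 from Hipk3, and no listed circle overlapped a span only in part. The genes themselves were 3 of 55401 in the 6 mRNA-seq libraries. The study asked how loss of exportin 4 (XPO4), a nuclear export receptor, affects circRNAs. Wild-type (WT) cells were compared with XPO4 knockout (KO) cells made with CRISPR-Cas9. No treatment of either genotype is named, and the KO cells were 1 knockout line. CircRNA-seq covered nuclear, cytoplasmic and whole-cell RNA after RNase R, an exonuclease that digests linear RNA, with 2 libraries of each fraction and genotype. mRNA-seq had 3 libraries of each genotype.

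HIPKs are serine/threonine kinases that sit largely in nuclear bodies, bind homeodomain transcription factors, and phosphorylate regulators such as p53 and the CtBP corepressors. HIPK2 is the member best known for p53 and DNA damage signalling. A circRNA forms when a downstream splice donor joins an upstream splice acceptor, and this back-splice junction is what marks its reads. The circle of the long second exon of Hipk3, circHIPK3 in human, is among the most abundant and conserved mammalian circRNAs.

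The circRNA values are junction reads, and the totals were 2189 to 4383 reads in the nuclear libraries, 50629 to 81941 in the cytoplasmic ones and 50341 to 58165 in the whole-cell ones. The mRNA-seq libraries held 16974062 to 22057323 counted reads. Xpo4 mRNA, the targeted gene, had 712, 504 and 687 reads in the KO libraries and 657, 614 and 685 in the WT ones (log2 fold change 0.18, SE 0.110, adjusted p = 0.193 by edgeR's quasi-likelihood test). A CRISPR-Cas9 edit need not lower the mRNA of its target, so this level was not taken as a check of the labels. Inside the mRNA-seq files the headings of the count columns carry the name of the opposite genotype, and genotypes were taken from the titles of the samples. The 10 fibroblast markers summed to 2729 to 2825 FPKM in WT and 2840 to 2933 in KO. Of these 10, 6 passed as higher in KO, 3 as lower and 1 did not pass by edgeR, where 48.7% of 14688 genes passed. Because the protocol text of the labels speaks of blood, 8 blood markers were summed too and reached 0.260 to 0.297 FPKM in WT and 0.503 to 0.680 in KO. The sum hid opposite members, since Ptprc (CD45) had 108, 103 and 105 reads in WT against 32, 26 and 21 in KO (log2 -1.78, adjusted p = 1.03e-05 by edgeR), while Hba-a1, an alpha globin, had 0 reads in each WT library against 8, 7 and 6 in KO. Of the other 6, 4 had no read in any library and 2 had at most 1. Their part in the results was not tested. The KO mRNA library of replicate 2 stood apart from the other KO libraries, with a chi-square per gene of 9.74 and 11.3 against them and 2.92 to 4.65 for the other pairs within a genotype.

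All 9 circles began and ended on annotated exon edges of the GENCODE transcripts (GRCm38). Circles are named here by gene and by the first and last exon between their ends, counted from the 5′ end of the transcript, so circHipk3(e2) is exon 2 alone. Junction reads show only the ends, and the exons in between are those of the annotated transcript. The junctions of the circles that carried 20 or more reads, and of the 1 circle that passed the test between genotypes, are shown as the last 15 bases of the last exon in lower case followed by the first 15 bases of the first exon in capitals. They are read from the GRCm38.p6 genome, on the minus strand, for all of these genes.

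circHipk3(e2): atctcgctactacagGTATGGCCTCACAAG
circHipk2(e2): atccagatactaccgGTATGGCCTCACATG
circHipk1(e2-3): tcagaatacgatcagGTATGGCCTCACAGC
circHipk2(e3-5): gatgatatggcccagGGCCCCTGAGATCAT
circHipk2(e3-6): cccccatagtgcccaGGCCCCTGAGATCAT
circHipk1(e11-15): ctcaaccttagccagCAAGCCTGGCCTGGA

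The second exon opened in the same way in all 3 genes. It had 1078 bases in Hipk1, 1084 in Hipk2 and 1099 in Hipk3, and an ATG at its bases 3 to 5, which is an annotated start codon of each gene (for Hipk2 in 1 transcript, with the start codon of the others in exon 1). The first 60 bases of each second exon are shown with that ATG in capitals, because 4 of the 9 circles carry it right after their junction.

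Hipk1 exon 2 start: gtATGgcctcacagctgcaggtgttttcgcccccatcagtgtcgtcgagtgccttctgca
Hipk2 exon 2 start: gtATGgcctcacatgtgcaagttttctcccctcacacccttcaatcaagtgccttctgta
Hipk3 exon 2 start: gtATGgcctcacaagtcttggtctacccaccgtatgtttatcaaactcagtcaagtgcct

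These lie at chr3:103778240-103778299, chr6:38819254-38819313 and chr2:104471788-104471847. Over the whole of exon 2, identity was 71.7% between Hipk1 and Hipk2, 65.3% between Hipk1 and Hipk3 and 66.7% between Hipk2 and Hipk3 in a global alignment. Read from the ATG around the circle, the frame of circHipk3(e2) ran for 1161 bases before a stop codon and that of circHipk2(e2) for 1140, so both frames crossed the junction once. This describes the sequence only, and translation was not measured.

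Exons 3 to 6 had the same lengths in the 3 genes, with 124, 120, 87 and 185 bases. Exon 3 was the most alike between Hipk1 and Hipk2, at 81.5% identity. It is printed for each gene because 5 of the 9 circles began or ended with it. Capitals mark the 86 bases shared by all 3 genes.

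Hipk1 exon 3: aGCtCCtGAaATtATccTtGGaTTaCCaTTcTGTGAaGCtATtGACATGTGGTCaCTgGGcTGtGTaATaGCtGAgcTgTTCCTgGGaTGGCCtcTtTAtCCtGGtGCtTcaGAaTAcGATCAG
Hipk2 exon 3: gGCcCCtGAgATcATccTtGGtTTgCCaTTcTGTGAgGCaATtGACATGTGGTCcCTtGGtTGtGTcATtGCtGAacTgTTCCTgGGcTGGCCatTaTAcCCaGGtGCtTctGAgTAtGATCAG
Hipk3 exon 3: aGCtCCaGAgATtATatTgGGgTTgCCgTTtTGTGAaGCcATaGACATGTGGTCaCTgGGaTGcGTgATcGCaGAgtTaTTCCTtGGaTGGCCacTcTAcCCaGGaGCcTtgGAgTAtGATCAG

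**Figure D1:**
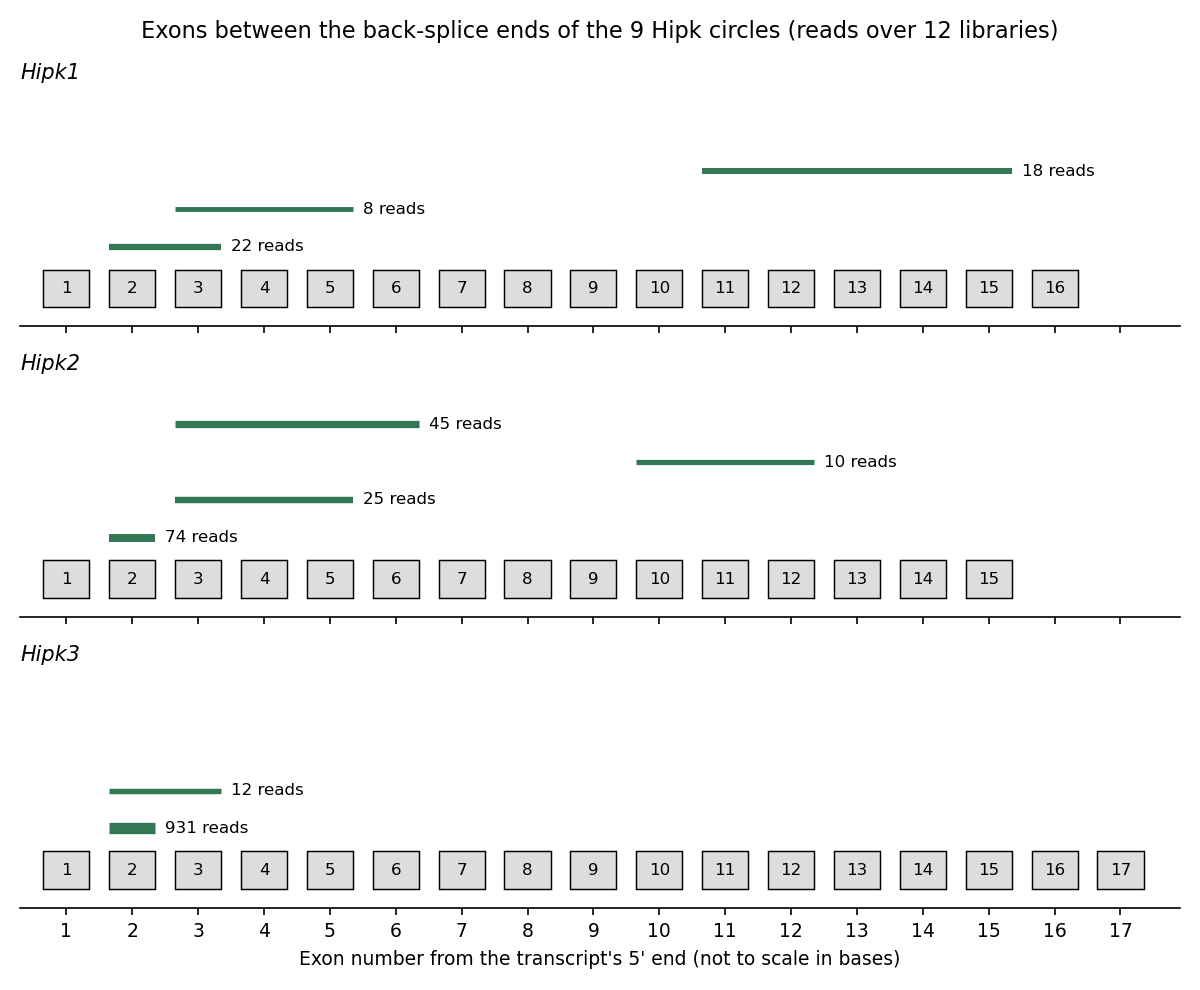
Exons between the ends of each Hipk circle (green bars) above the exons of the annotated transcript (boxes numbered from the 5′ end), with junction reads summed over the 12 libraries and bar thickness growing with the log of those reads. Most circles lie in exons 2 to 6, and the exon 2 circle of Hipk3 has 931 reads against 74 for that of Hipk2.

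The same exon pairs gave circles in more than 1 of the genes. Exon 2 alone was circular in Hipk2 and Hipk3, exons 2 to 3 in Hipk1 and Hipk3, and exons 3 to 5 in Hipk1 and Hipk2, where both spliced circles had 331 bases. Of the remaining circles, circHipk2(e3-6) began at the 124 bases of exon 3, and circHipk1(e11-15) and circHipk2(e10-12) at exons of 143 bases each with 75.5% identity. A circle of exon 2 alone was not listed for Hipk1.

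Hipk3 gave most of the junction reads. Over the 12 libraries, 943 of 1145 Hipk reads (82.4%) came from Hipk3, 154 (13.4%) from Hipk2 and 48 (4.19%) from Hipk1, and circHipk3(e2) alone had 931. This circle lies at chr2:104470749-104471847 and its spliced length is longer than that of 87.0% of the 586 other single-exon circles on exon edges, whose median was 433 bases. The introns on both sides of it, of 22100 and 24113 bases, added up to more than those around 87.7% of 15163 other exon-edge circles (median 12856). Those around circHipk2(e2) added up to 126717 bases, more than around 98.1% of them. A search for reverse-complementary stretches of at least 50 bases between the 2000 bases on each side found none beside circHipk3(e2) and 1 of 60 bases at 71.7% identity beside circHipk2(e2). Such a stretch was found for 21.4% of 6222 other circles with at least 20 reads.

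**Figure D2:**
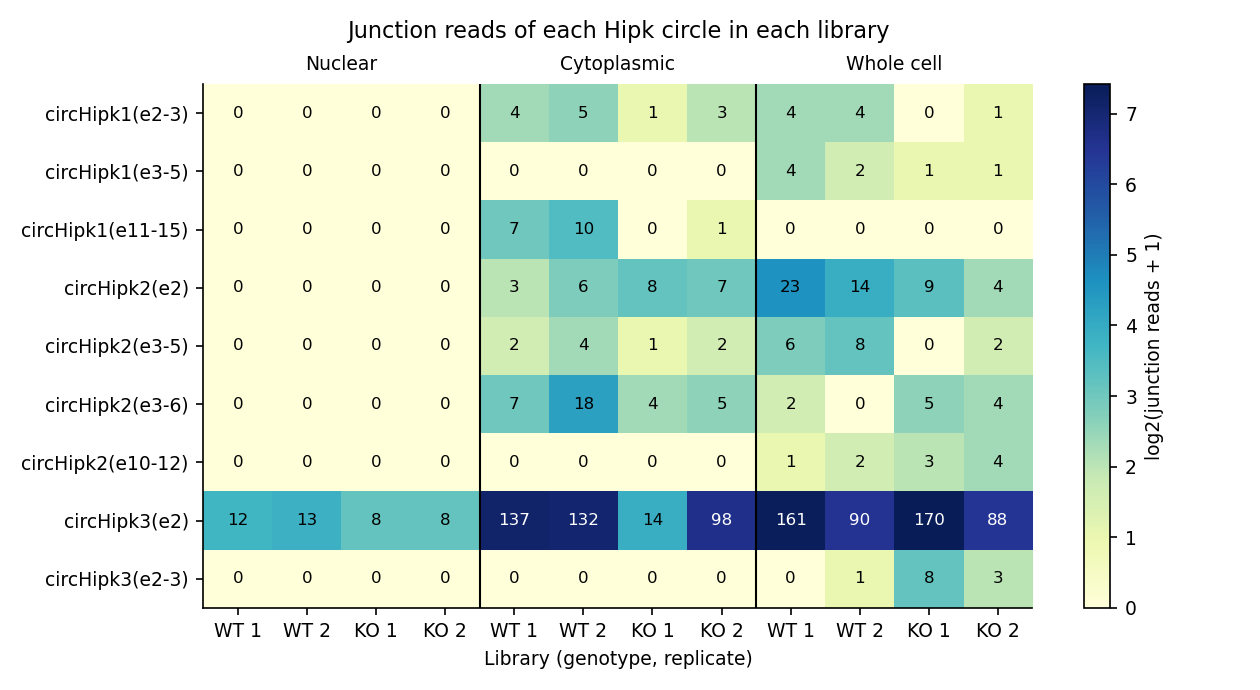
Junction reads of the 9 Hipk circles (rows) in each of the 12 circRNA-seq libraries (columns, by fraction, genotype and replicate), with colour on a log2(reads + 1) scale. Reads of nuclear libraries all come from circHipk3(e2), and the KO cytoplasmic library of replicate 1 holds 14 reads of it against 98 in replicate 2.

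In the nucleus, circHipk3(e2) was the sole Hipk circle listed, with 12 and 13 reads in the WT libraries and 8 and 8 in the KO libraries. It ranked 5 and 8 by reads among the 1001 and 957 circRNAs of the WT nuclear libraries, and 37 and 41 among the 1101 of each KO one. Scaled to 1000000 junction reads of the library (CPM), the level was 5482 and 4934 in WT against 2137 and 1825 in KO. The KO libraries thus lay below both WT libraries. For circHipk3 the paper reports the other direction by fluorescence in situ hybridization, with higher nuclear signal and Nuc/Cyto ratio in KO cells. Such signal in imaged cells is a different measure from a share of junction reads. From circRNA-seq, the paper reports higher nuclear and lower cytoplasmic levels in KO for ecircRNAs as a group. The nuclear libraries held 3743 and 4383 junction reads in KO against 2189 and 2635 in WT. CPM divides by these totals, so a rise shared by all nuclear circRNAs would not show in it. Whether the totals differ through RNA content or sequencing depth was not tested. In bulk libraries such as these, fewer cells holding an RNA and less of it per cell cannot be told apart. The edgeR fit over 651 nuclear circRNAs, of which 10.1% passed an adjusted p of 0.05, gave a log2 fold change of -1.58 (SE 0.785, adjusted p = 0.179 by edgeR), which did not pass. It shrank to -0.63 without KO replicate 2, to -0.97 without KO replicate 1 and to -0.64 with equal library sizes. Without WT replicate 1 it grew to -1.82, and without WT replicate 2 to -1.91. With reads summed by host gene, the same reads gave -1.59 (adjusted p = 0.0161 by edgeR, where 12.4% of 564 hosts passed). That call was lost in DESeq2 (adjusted p = 0.510), without the filter on low counts (adjusted p = 0.0574) and without any 1 of the 4 libraries (adjusted p = 0.0679 to 0.136), so the nuclear difference is not beyond the spread of these libraries in every fit.

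The other 8 circles had no nuclear reads. A count of 0 in a nuclear library allows up to 684 to 1370 CPM (3 reads, counting error only), and none of the 8 went above 398 CPM in any library, so nuclear reads at such levels were not detectable at this depth. At its share of the cytoplasmic reads, circHipk3(e2) would have had 8.12 nuclear reads in the 2 WT libraries, and 25 were counted. In KO the same reckoning gave 7.99 against 16 counted, but 2.25 from the share in cytoplasmic replicate 1 alone and 12.6 from that in replicate 2. For no other Hipk circle did it exceed 1.07 reads with the libraries pooled. The reckoning rests on library totals, and with TMM factors the nucleus lay lower than the cytoplasm, as given with the Nuc/Cyto ratio.

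**Figure D3:**
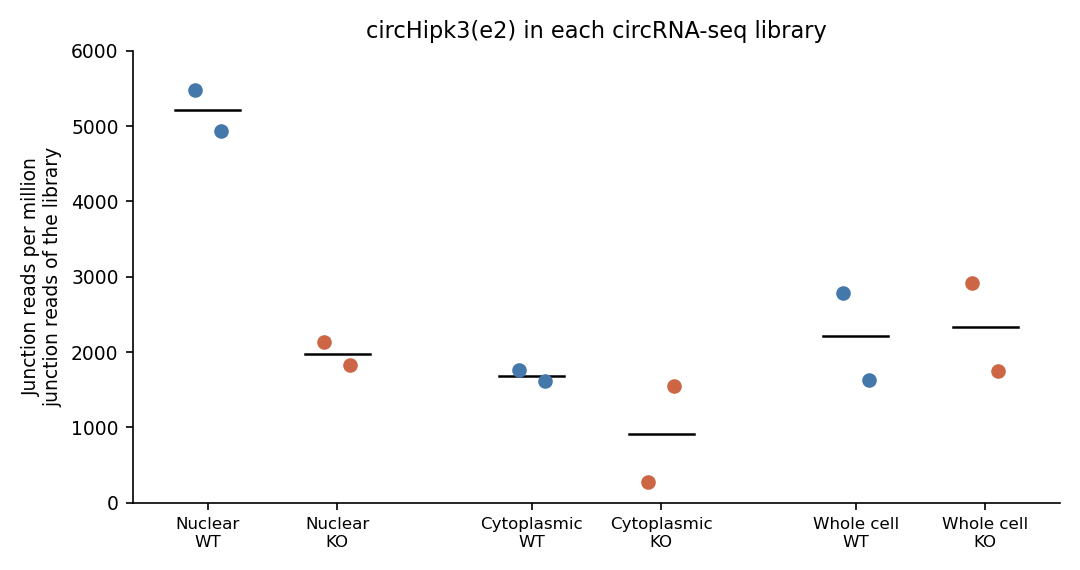
Level of circHipk3(e2) in CPM (junction reads per 1000000 of the library), by fraction and genotype (points: libraries, blue WT and orange KO; lines: means of 2). The nuclear KO libraries, at 2137 and 1825, lie below the nuclear WT ones, and the cytoplasmic KO libraries are spread from 276.5 to 1547.

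In the cytoplasm, circHipk3(e2) was read 137 and 132 times in the WT libraries against 14 and 98 times in KO. This was 1761 and 1611 CPM in WT and 276.5 and 1547 in KO, so both KO libraries were lower, the first by far, while with TMM scaling the second lay between the WT libraries. The log2 fold change was -0.80 (SE 0.851, adjusted p = 0.422 by edgeR over 8917 circRNAs). Without KO replicate 1 it turned to 0.50 (adjusted p = 0.520), and without KO replicate 2 it became -2.18 (adjusted p = 0.0393). A single library thus set both the size and the direction. By reads the circle ranked 30 and 22 in the WT libraries, 500 in KO replicate 1 and 40 in KO replicate 2. The 2 KO libraries differed over all circRNAs with a chi-square per circle of 2.37, against 1.60 for the WT pair.

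In whole cells the values of this circle overlapped between genotypes, with 161 and 90 reads in the WT libraries and 170 and 88 in the KO ones. These were 2786, 1633, 2923 and 1748 CPM. Each genotype had 1 high and 1 low library, and the log2 fold change was 0.07 (SE 0.634, adjusted p = 0.954 by edgeR). It ranked between 10 and 19 in these 4 libraries. Beside the nuclear and cytoplasmic values, the plot with each library left out shows how far each estimate rests on 1 library.

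**Figure D4:**
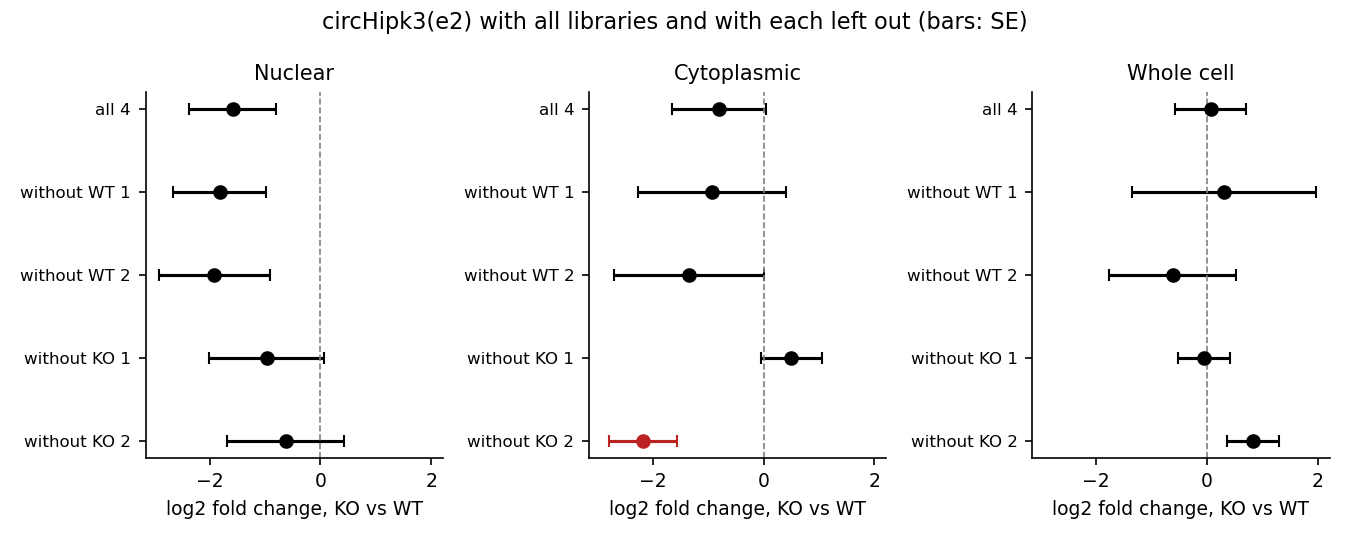
Log2 fold change of circHipk3(e2), KO against WT, in each fraction with all 4 libraries and with each left out (points: edgeR estimates, bars: SE, red: adjusted p under 0.05). The cytoplasmic estimate moves from -2.18 to 0.50 depending on which KO library is left out, and the nuclear one stays below 0.

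The Nuc/Cyto ratio of circHipk3(e2) depended on how the fractions were scaled. With TMM factors the nucleus was lower by a log2 of -0.39 in WT (SE 0.424, adjusted p = 0.395) and -0.84 in KO (SE 0.923, adjusted p = 0.391). With library totals the same ratios were 1.62 (adjusted p = 0.299) and 1.11 (adjusted p = 0.292), so the sign turned. In the WT fit 0.875% of 5373 circRNAs passed, and in the KO fit 92.4% of 4359. These are 47 and 4029 circRNAs, and the numbers became 627 and 285 with RLE size factors, 127 and 236 with library totals, and 1354 and 0 without the filter on low counts. circHipk2(e2) was the 1 other Hipk circle tested in KO and passed there (adjusted p = 0.0205 by edgeR), but its nuclear libraries were all at 0 and the call was lost with RLE size factors (adjusted p = 0.0765). The difference of the ratio between genotypes was -0.51 (SE 1.31, adjusted p = 1.00), and no circRNA of 9266 passed in this test (0% called by edgeR, 115 at an unadjusted p under 0.05, 1 by DESeq2).

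Hipk1 circle reads were lower in KO cytoplasm, a call that was lost without KO replicate 1. circHipk1(e11-15), at chr3:103745260-103750918, had 7 and 10 reads in WT cytoplasm and 0 and 1 in KO, and none in whole cells or nuclei. Its log2 fold change of -3.30 (SE 0.845, adjusted p = 0.00324 by edgeR) made it the 1 of 5 Hipk circles tested in the cytoplasm that passed. In that fit 53.5% of all circRNAs tested passed, and 23.5% of those tested passed as lower in KO, so a call was common there. Without KO replicate 1 the log2 fold change of circHipk1(e11-15) was -2.04 and the call was lost. Without WT replicate 2 the circle fell below the filter of 10 reads and was not tested. It did not pass with equal library sizes (adjusted p = 0.0510 by edgeR), and DESeq2 gave it no adjusted p. circHipk1(e2-3), which like circHipk3(e2) carries the start codon, had 4 and 5 reads in WT cytoplasm and 1 and 3 in KO (log2 -0.60, adjusted p = 0.527 by edgeR). In whole cells it had 4 and 4 reads in WT against 0 and 1 in KO. circHipk1(e3-5) was seen in whole cells alone, with 4 and 2 reads in WT against 1 and 1 in KO, too few to be tested. With all circles of the gene summed, Hipk1 reads were 11 and 15 in WT cytoplasm and 1 and 4 in KO (log2 -1.85, adjusted p = 0.0150 by edgeR, with 45.8% of 3774 hosts passing, and 0.257 by DESeq2), and the call was also lost without KO replicate 1 (-1.16, adjusted p = 0.181). Their whole-cell sums were 8 and 6 in WT against 1 and 2 in KO (-2.13, adjusted p = 0.0538 by edgeR, with 8% of 3701 hosts passing).

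The circles of Hipk2 did not lie on the same side of WT in KO cells, but none of those tested passed in the cytoplasm or in whole cells. circHipk2(e2), at chr6:38818230-38819313, had 3 and 6 reads in WT cytoplasm and 8 and 7 in KO, with the KO libraries higher (log2 1.25, adjusted p = 0.0549 by edgeR). In whole cells it had 23 and 14 reads in WT against 9 and 4 in KO, with the KO libraries lower (log2 -1.46, adjusted p = 0.103 by edgeR). circHipk2(e3-6) did the opposite. Its reads were 7 and 18 in WT cytoplasm against 4 and 5 in KO (log2 -0.91, adjusted p = 0.145 by edgeR), and in whole cells 2 and 0 in WT and 5 and 4 in KO (log2 2.08, adjusted p = 0.110 by edgeR). The whole-cell value fell to 0.85 without WT replicate 2. Without any other whole-cell library the circle was below the filter of 10 reads. circHipk2(e3-5), which shares its start with circHipk2(e3-6), had 6 and 8 reads in WT whole cells and 0 and 2 in KO (log2 -2.62, adjusted p = 0.0660 by edgeR), and 2, 4, 1 and 2 in the cytoplasm. circHipk2(e10-12) was listed in whole cells alone, with 1 and 2 reads in WT against 3 and 4 in KO (adjusted p = 0.300 by edgeR). The whole-cell fold change was set against the cytoplasmic one in a fit over both fractions, in which 7.41% of 13729 circRNAs passed. The difference between them was -2.67 on the log2 scale for circHipk2(e2) (SE 0.835, adjusted p = 0.0462 by edgeR) and 3.05 for circHipk2(e3-6) (SE 1.06, adjusted p = 0.0830 by edgeR), so it passed for the first. That call was lost in DESeq2 (adjusted p = 0.162), with equal library sizes (adjusted p = 0.267) and without any 1 of 6 of the 8 libraries (adjusted p = 0.0782 to 0.317). The value for circHipk2(e3-6) ranged from 1.90 to 6.34 with each library left out, and it passed without WT whole-cell replicate 1 (6.34, adjusted p = 0.0229) or WT cytoplasmic replicate 1 (3.81, adjusted p = 0.0450).

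Over the gene these differences left little in the cytoplasm, with 12 and 28 reads in WT against 13 and 14 in KO (log2 -0.07, adjusted p = 0.903 by edgeR). In whole cells there were 32 and 24 reads in WT against 17 and 14 in KO (log2 -0.85, adjusted p = 0.0951 by edgeR). The second Hipk3 circle, circHipk3(e2-3), was listed in whole cells alone, with 0 and 1 reads in WT against 8 and 3 in KO (log2 3.21, adjusted p = 0.0629 by edgeR). Of the 6 Hipk circles tested in whole cells, none passed. Neither did any of the 8903 circRNAs of that fit (0% called by edgeR, 3405 at an unadjusted p under 0.05, 7 by DESeq2). That count rested on the scaling and the model, with 1832 called with RLE size factors, 2003 with library totals and 2054 with a replicate block.

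circHipk3(e2) made up most of the Hipk reads in every group. Its share was 80.3% in WT cytoplasm (95% exact Clopper-Pearson interval 75.6 to 84.4, n = 335 reads) and 77.8% in KO cytoplasm (70.1 to 84.3, n = 144 reads). In whole cells it was 78.0% in WT (73.0 to 82.4) and 85.1% in KO (80.6 to 89.0). The KO cytoplasmic libraries themselves gave 50% and 84.5%, a gap wider than that between the genotypes, and intervals cover counting error only. In the nucleus all 25 WT and 16 KO reads came from it.

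Among 649 circRNAs with at least 100 reads, those whose level went most like that of circHipk3(e2) over the 12 libraries came from Tns3 (Pearson r 0.860 on log2(CPM + 1)), Rnf217 (0.855), 2610307P16Rik (0.852), Shoc2 (0.832) and Med13l (0.799). The points share their libraries, and no test was made. The r was taken over all fractions, and in the shallow nuclear libraries a few reads already give a high CPM. Each of these circles had reads in every nuclear library. The Tns3 circle had 57 and 46 reads in WT cytoplasm and 12 and 22 in KO, so among the cytoplasmic libraries it too was lowest in KO replicate 1. That of Rnf217 had 41, 24, 6 and 19 reads in the same order of libraries. These libraries were part of the r that picked the circles, so the shared low is no separate observation.

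**Figure D5:**
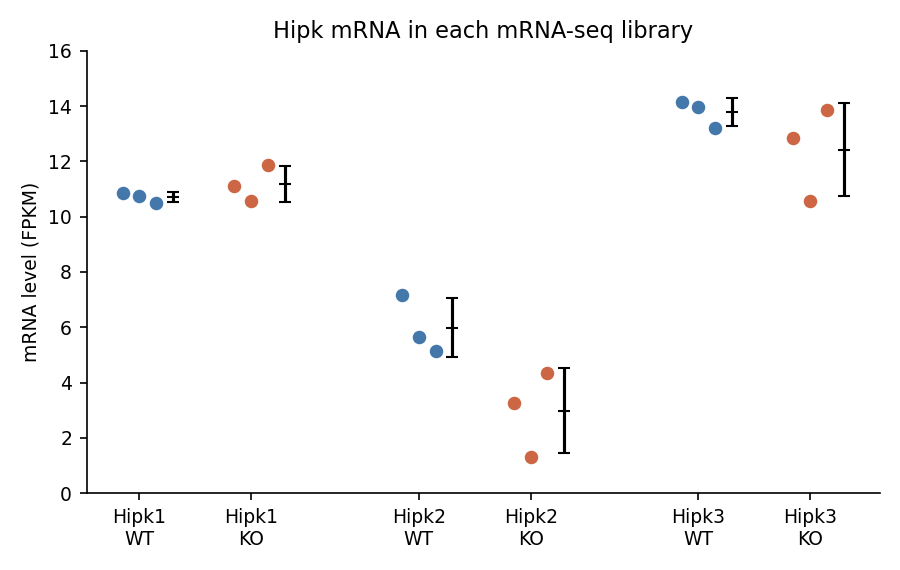
mRNA level of the 3 Hipk genes in FPKM in each mRNA-seq library (points, blue WT and orange KO by sample title), with the mean and SD of 3 beside them. Hipk2 is the lowest of the 3 genes, and its 3 KO libraries lie below all WT ones.

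Of the mRNAs, Hipk2 differed between genotypes. Its counts were 1261, 977 and 1001 reads in the WT libraries and 516, 207 and 652 in the libraries labelled KO, or 45.4 to 63.4 CPM against 29.0, 11.5 and 38.4. All 3 KO libraries were lower than all WT ones, and the lowest was replicate 2, the library that stood apart. The log2 fold change was -1.02 (SE 0.267, adjusted p = 0.00653 by edgeR, in a fit where 48.7% of 14688 genes passed), and between -0.65 and -1.38 with each library left out, where it passed each time. It did not pass in DESeq2 (-1.02, adjusted p = 0.0822). If the column headings inside the files were followed in place of the sample titles, the direction would turn.

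Hipk1 mRNA, with 2360, 2287 and 2530 reads in WT against 2163, 2065 and 2196 in KO, did not differ by the test (log2 0.06, SE 0.0573, adjusted p = 0.403 by edgeR). Hipk1 overlaps the antisense gene Gm15886, and reads were counted without strand. Hipk3 mRNA had 2247, 2181 and 2328 reads in WT against 1827, 1513 and 1877 in KO (log2 -0.15, SE 0.0806, adjusted p = 0.134 by edgeR), and it passed without KO replicate 3 (-0.23, adjusted p = 0.0298). Per length, the order in WT was Hipk3 (13.8 ± 0.498 FPKM, SD, n = 3), Hipk1 (10.7 ± 0.183) and Hipk2 (5.99 ± 1.06), with no overlap between neighbours. In KO, Hipk3 (12.4 ± 1.68) and Hipk1 (11.2 ± 0.650) overlapped and Hipk2 was at 2.98 ± 1.54. Hipk3 mRNA thus lay above Hipk1 mRNA in WT and overlapped it in KO, while in WT cytoplasm Hipk3 had 269 circle reads and Hipk1 26.

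Among 6 related kinases, Hipk4 and the 5 measured Dyrk kinases, Dyrk2 rose (log2 0.57, adjusted p = 8.67e-06 by edgeR) and Dyrk3 fell (-0.43, adjusted p = 0.0375), and the other 4 did not pass. Their median log2 fold change was 0.13, against -0.0029 over all genes. Of 30 genes for known HIPK substrates, partners and regulators, 8 rose, 9 fell and 13 did not pass, with a median of -0.05. Those with the smallest p were Hmga1, a chromatin architectural protein (log2 0.69, adjusted p = 4.24e-07 by edgeR), Trp53inp1, a p53-induced nuclear protein (-0.66, adjusted p = 1.36e-06), and Map3k5, the stress kinase ASK1 (1.95, adjusted p = 1.41e-05). With 48.7% of all genes passing, the 17 of 30 that passed were near the background share.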

How the data were processed

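RNA of NIH/3T3 cells was sequenced by the authors. The circRNA-seq files hold deposited counts, the junction reads that find_circ (version 1.2) assigned to every circRNA of a library on mm10 (GRCm38) once adapters had been cut off by cutadapt (version 4.1). The mRNA-seq files hold deposited counts of reads for each gene, made by featureCounts (version 2.0.0) from HISAT2 (version 2.0.5) alignments. Filters before deposition are not given in the sources used here.

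Groups came from the sample titles. Nothing says that replicates came from separate cultures, so p-values measure the spread between these libraries. A circRNA absent from a list was entered as 0. Counts were tested across all circRNAs with at least 10 reads over a fit's libraries, or all genes passing edgeR's own filter, with edgeR (version 4.0.16, R 4.3.3, glmQLFTest, TMM) and Benjamini-Hochberg adjustment at 0.05. DESeq2 (version 1.42.0), RLE factors, library totals, equal library sizes, no filter, a replicate block and leaving out each library were the alternatives. Data were simulated with 1 common spread for all features of a fit, and the lowest-expressed features were left unchanged. On these data the test recovered all genes changed 2-fold in mRNA, which need not hold for genes with a wider spread, such as Hipk2. Of circRNAs changed 4-fold it recovered a minority between genotypes and none between nucleus and cytoplasm in WT. A Nuc/Cyto ratio in WT that did not pass thus says little. The KO ratio and the difference of the ratio between genotypes were not simulated.

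FPKM used library totals and exon lengths from the files. Exons came from GENCODE vM21 and sequences from the GRCm38.p6 genome, and flanks were searched with blastn (version 2.17.0). Every Hipk circle is given, and singled out were the most abundant circle of each gene and others with at least 20 reads or a nuclear read. circHipk1(e11-15), with fewer reads, was shown because it passed the test. The members, marker and gene lists were chosen with earlier results of these data known. The comparison of whole cell with cytoplasm was added after the data were seen. No molecular identifiers are named, so intervals and floors cover counting error only. The value of 1 gene of the partner list is not reported here.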

Additional observations from a re-analysis of the deposited data

Results flagged for a closer look

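Both flagged results are circles of Hipk2. Their difference between genotypes had opposite signs in the cytoplasm and in whole cells, with no overlap between the libraries of each genotype in either. Neither circle passed between genotypes in either fraction. Lack of overlap was usual here, since of the Hipk circles tested in these fractions only circHipk3(e2) had overlapping libraries. A circle was flagged for this pattern or for passing the test of the difference between fractions, so the pattern is no separate support. How often it arises over all circRNAs was not counted. The difference itself was tested in 1 edgeR fit over both fractions, added after the data were seen, in which 7.41% of 13729 circRNAs passed. For circHipk2(e2) the whole-cell log2 fold change minus the cytoplasmic one was -2.67 (SE 0.835, adjusted p = 0.0462 by edgeR), and the call was lost in DESeq2 (adjusted p = 0.162), with equal library sizes (adjusted p = 0.267) and without any 1 of 6 of the 8 libraries (adjusted p = 0.0782 to 0.317). For circHipk2(e3-6) it was 3.05 (SE 1.06, adjusted p = 0.0830 by edgeR), which did not pass, though it did without WT whole-cell replicate 1 (adjusted p = 0.0229), without WT cytoplasmic replicate 1 (adjusted p = 0.0450) or, barely, with library totals. These values rest on at most 23 reads in a library.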

How the results depend on the processing

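Of 10 comparisons planned and 1 added, the count of Hipk results past the threshold moved under some settings in 9. The number of circles called in the cytoplasm, 1 of 5, became 2 with RLE size factors and 0 with equal library sizes or in DESeq2 (no adjusted p for circHipk1(e11-15)), and ranged from 0 to 3 with each library left out. In whole cells, with none called, it became 2 with RLE size factors and 2 with library totals, 3 with a replicate block, and 0 to 1 with each library left out. Nucleus against cytoplasm in WT went from 0 to 2 with equal library sizes. In KO the 1 call became 0 with RLE size factors, library totals, no filter and DESeq2, and 0 to 1 with each library left out. The nuclear Hipk3 sum, the 1 of 1 called, became 0 with no filter, a replicate block, equal library sizes, DESeq2 and each library left out (0 to 0). The cytoplasmic sums went from 1 to 0 with a replicate block, equal library sizes and DESeq2, and to between 0 and 2 with each library left out. The whole-cell sums went from 0 to 1 with RLE size factors, library totals and a replicate block. For mRNA the 1 call became 0 in DESeq2 and 1 to 2 with each library left out. The added comparison went from 1 to 2 with library totals and to 0 with equal library sizes or DESeq2, and 0 to 1 with each library left out, where the 1 was circHipk2(e3-6) in place of circHipk2(e2) for 2 libraries. Calls over whole tables moved too. Over all settings they ranged from 0 to 72 in nuclei (66 reported), 879 to 5252 in the cytoplasm (4768), 0 to 2054 in whole cells (0), 0 to 3862 for Nuc/Cyto in WT (47), 0 to 4050 in KO (4029), 0 to 4 for its difference (0) and 0 to 1103 for the added comparison (1018). For host sums they ranged from 0 to 73 in nuclei (70), 0 to 1803 in the cytoplasm (1729) and 0 to 760 in whole cells (296).

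Signs turned as follows. For circHipk3(e2) the Nuc/Cyto ratio was 1.62 in WT and 1.11 in KO with library totals, and its difference between genotypes was 0.63 with equal library sizes. With each library left out, this circle ranged from -2.18 to 0.50 in the cytoplasm, -0.62 to 0.83 in whole cells, -1.53 to 0.58 for Nuc/Cyto in KO and -1.99 to 0.69 for its difference between genotypes. circHipk1(e2-3) ranged from -1.03 to 0.37 in the cytoplasm. Cytoplasmic sums ranged from -2.58 to 0.056 for Hipk3 and -0.57 to 0.43 for Hipk2, and the whole-cell sum of Hipk3 from -0.28 to 0.61. The share of circHipk3(e2) ranged from 75.4% to 85.6% in WT cytoplasm and from 50% to 84.5% in KO. The cause was not tested.

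Same-numbered libraries of the 2 genotypes deviated together with a correlation of -0.013 in nuclei, -0.0043 in the cytoplasm, 0.0046 in whole cells and -0.139 to 0.121 for mRNA, so the number alone pairs nothing, and the block was kept as an alternative. Nuclear depth, 2189 to 4383 junction reads, limits what can be seen of 8 of the 9 circles there.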
